A study of Xenopus laevis with 8 samples.

Results

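Ectodermal explants of Xenopus laevis that expressed Pinhead were compared directly with explants that expressed Chordin, across all genes of the deposited count table. The comparison rests on 4 of the 8 libraries of the series, 2 a side, chosen by their labelled treatment: Pinhead libraries 5 and 6 and Chordin libraries 3 and 4. All explants were wild type, were taken as ectoderm, were cultured in 0.6 x MMR (a buffered salt solution for amphibian embryos) and were harvested at early neurula, the Pinhead protein carrying a Flag tag. Control explants (libraries 1 and 2) and explants expressing both proteins (libraries 7 and 8) are cited here only for their levels, side by side with the pair under comparison. RNA came from RNeasy columns and was sequenced from both ends of each fragment, 150 bp an end. Whether replicate libraries were made from different batches of embryos is not stated, so p-values here reflect library-to-library spread, possibly of technical origin.

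Bone morphogenetic proteins (BMPs) are secreted signals that direct ectoderm of the vertebrate gastrula to epidermis and mesoderm to ventral fates. Chordin, made by the Spemann organizer, binds BMPs outside the cell and keeps them from their receptors, and ectoderm shielded in this way forms neural tissue of anterior character. Pinhead, too, is secreted by cells of the early embryo. Wnt and FGF signals, acting through T-box and caudal-type (Cdx) transcription factors, promote mesoderm and posterior identity, which the hox genes then subdivide along the body axis. Xenopus laevis is an allotetraploid and keeps paired copies of many genes on its long and short subgenomes, written .L and .S and counted here as separate genes. Reads of near-identical copies can be exchanged in counting, so the level of a single copy is less certain than its gene's direction.

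The 4 libraries held 15052017 to 19677493 counts, which is also the range over all 8. Levels are in CPM (counts scaled to a common library total), which is not per gene length, so they compare libraries and not genes. Each expressed protein was high where its label put it: pnhd.L stood at 1250 and 739 CPM in the Pinhead libraries and at 1.83 and 2.89 CPM in the Chordin libraries, while chrd.S stood at 0.633 and 1.17 CPM against 816 and 794 CPM. The Pinhead libraries thus differed in pnhd.L from each other, and they were also further apart over all genes (mean chi-square per gene 9.4, against 3.19 for the Chordin libraries). At a mean of at least 5 CPM, 14830 genes were measured, and 41 of them differed 2-fold between the Pinhead libraries and 16 between the Chordin libraries, compared with 4245 between the group means.

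Pinhead and Chordin explants differed in a large share of their transcripts. Of 23130 genes tested, 14028 (60.6%) were called different at an adjusted p under 0.05 (quasi-likelihood test of edgeR, adjusted after Benjamini and Hochberg), 7205 (31.2%) higher with Pinhead and 6823 (29.5%) higher with Chordin. A difference of at least 2-fold was called in 4694 genes (20.3%) toward Pinhead and in 3170 (13.7%) toward Chordin, and one of at least 10-fold in 1534 and 784. The median log2 fold change (Pinhead minus Chordin, used throughout) was 0 over all genes tested, with quartiles of -0.59 and 0.83. Both Pinhead libraries lay above both Chordin libraries in 9385 genes (40.6%) and below them in 9407 (40.7%). With 73 genes, a mean of at least 5 CPM with Pinhead stood against 0 counts with Chordin, and the reverse held for 26 genes. Since so large a share of all genes was called, the counts of gene lists below are to be read against 31.2% and 29.5%. In RNA from whole explants, fewer cells of a type and less RNA per cell cannot be told apart.

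**Figure D1:**
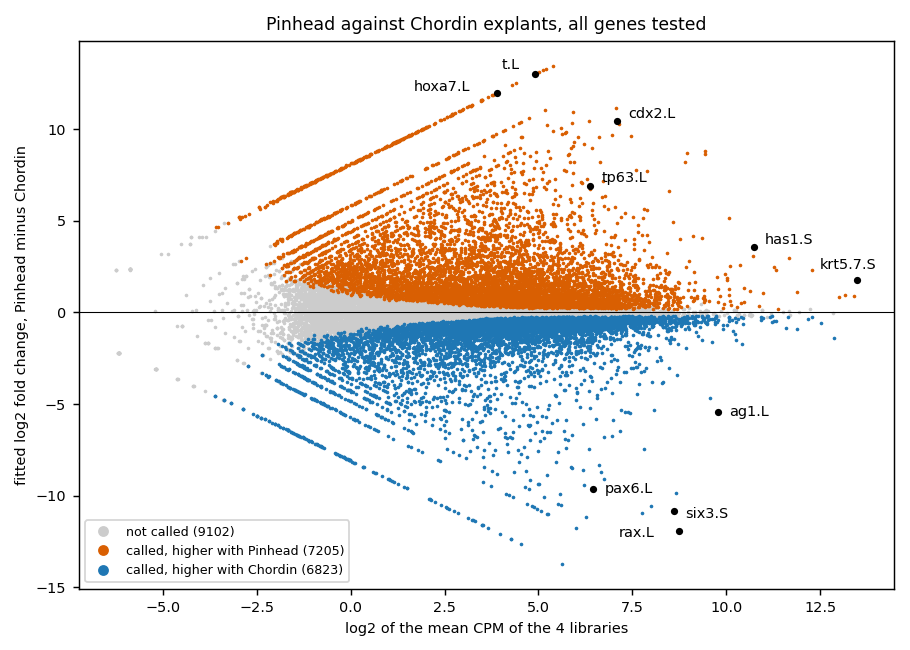
Fitted log2 fold change (Pinhead minus Chordin) of each gene tested against the log2 of its mean CPM over the 4 libraries. Orange points are the 7205 genes called higher with Pinhead, blue points the 6823 called higher with Chordin, and black points mark genes described in the text; the straight rows at the margins are genes with few or 0 counts in a group.

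Genes of the early mesoderm were far higher with Pinhead. Brachyury, the T-box factor that marks nascent mesoderm, had t.L at 50.5 and 70.2 CPM in the Pinhead libraries and 0 counts in both Chordin libraries, at least 716-fold higher, a bound set against 3 counts over the Chordin group as in all bounds below. Its other copy, t.S, stood at 42.8 and 72 CPM against 0.221 and 0.492 CPM, which gave 7.29 ± 0.59 (log2 fold change ± SE, as in all such values below; adjusted p = 7.25e-06 by edgeR). The groups did not overlap in t.S, and control explants were low like the Chordin explants, at 0.543 and 0.787 CPM for t.S. The T-box gene vegt.S, in the zygotic phase a mesodermal regulator, was at 36.4 and 48.2 CPM against 0 counts in either Chordin library, at least 504-fold higher. In tbx6.L, a T-box factor of presomitic mesoderm, 17.7 and 28.5 CPM stood against 0 and 0.0546 CPM, and msgn1.L, a basic helix-loop-helix factor of the same tissue, was at 12.8 and 13 CPM against 0 counts. All of these were high in both Pinhead libraries and near absent from both Chordin libraries. An exception among the marker genes set for mesoderm was the T-box gene eomes, which had too few counts to test. Its copy eomes.L had 2 and 0 counts with Pinhead and 1 and 3 with Chordin, and eomes.S 0 and 0 against 1 and 2.

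Of 63 pan-mesodermal genes 48 had enough counts to be tested, and 36 of these (75%) were called higher with Pinhead and 5 higher with Chordin, with a median log2 fold change of 4.34. Some passed the count filter through their Pinhead counts, such as t.L and msgn1.L, with control means of 0.0302 and 0.0328 CPM. Explants with both proteins had means of 0.0871 and 0.112 CPM of these. For such genes the filter favoured a difference toward Pinhead, so the 36 of 48 and the median are partly set by it. The 5 higher with Chordin were fgf8.L, fgf8.S, foxc2.L, hes7.1.S and wnt5b.L, and that count was 2 without library 3 or without library 5. The somite homeobox gene meox2.S had 10.5 and 11.6 CPM with Pinhead, compared with 0.111 and 0.109 CPM with Chordin, and esr-5.L, a hairy/Enhancer of split type factor of the segmenting paraxial mesoderm, had 37.6 and 43.8 CPM against 0.221 and 0.164 CPM, a 203-fold difference (edgeR adjusted p = 1.35e-06). Both genes were near 0 in control explants too. Paraxial and somite genes as a list were divided, 21 higher with Pinhead and 15 higher with Chordin of 45 tested, with a median of 0.30. On the Chordin side stood the retinaldehyde dehydrogenase aldh1a2.L at 52.8 and 52.8 CPM against 1.32 and 1.44 CPM, and the ephrin ligand efnb2.S at 242 and 244 CPM against 30.6 and 23.9 CPM. The TGF-beta family ligand gdf3.S, which had no counts in the Chordin or control libraries, was at 18 and 19.5 CPM with Pinhead (chosen after its value was seen).

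Markers of differentiated axial and muscle tissue were scarce in both groups. The notochord and floor plate signal shh.L had 0 and 0.0688 CPM with Pinhead and 0 counts with Chordin, and shh.S, foxa4.L, foxa4.S, admp.L and admp.S were likewise at or below 0.111 CPM in each of the 4 libraries. In explants with both proteins the same shh.L stood at 5.3 and 17.7 CPM. The notochord list had 17 members higher with Pinhead, t.L and t.S among them, and 15 higher with Chordin of 53 tested, with a median of 0.09. Of 45 muscle genes tested 11 were called in each direction, and the Pinhead calls numbered 7 without library 5. Skeletal and cardiac actin actc1.S was at 7.7 and 8.19 CPM in Pinhead explants and 0.221 and 0.437 CPM in Chordin explants, a log2 fold change of 4.56 ± 0.63 (edgeR adjusted p = 0.000219), whereas actc1.L was under 0.28 CPM in all 4 libraries and was not called. The muscle determination factor myod1.L was low on both sides, at 0.264 and 0.344 CPM with Pinhead, compared with 0.886 and 1.26 CPM with Chordin, and its call toward Chordin (edgeR adjusted p = 0.0113) was lost without library 4 or 5 (adjusted p = 0.0651 and 0.0765). Its relative myf5.L was at 1.21 and 4.27 CPM with Pinhead and had 0 counts with Chordin.

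Regulators of posterior identity were also far higher with Pinhead. The caudal-type homeobox genes, regulators of the posterior body, were near 0 with Chordin: cdx2.L stood at 250 and 296 CPM in the Pinhead libraries against 0.221 and 0.164 CPM, a log2 fold change of 10.41 ± 0.81, and cdx4.L at 115 and 134 CPM against 0.221 and 0.164 CPM, a fold change of 622 (edgeR adjusted p = 5.62e-06 and 1.97e-05). Control explants had 38.6 and 25.4 CPM of cdx2.L and 1.45 and 0.525 CPM of cdx4.L. The homeobox gene evx1.L of the posterior mesoderm was at 17.9 and 21.4 CPM with Pinhead and at 0.111 and 0.0546 CPM with Chordin. In none of these genes did the groups overlap.

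Hox genes, which specify levels of the hindbrain and trunk, were higher with Pinhead in 53 of 54 cases, and in none higher with Chordin. The table holds 76 hox genes, 22 of which had too few counts to be tested, so the 54 are those that some group expressed. Only 18 had a control mean of 0.5 CPM or more, so many passed the count filter mainly through their Pinhead counts. For such genes the filter itself favoured a difference toward Pinhead, so the 53 of 54 and the median are partly set by it. The median log2 fold change was 8.51, and 35 of the 53 had 0 counts in both Chordin libraries. The exception was hoxc13.L, at 0.686 and 1.03 CPM with Pinhead, which was not called. Summed over the tested genes of a paralog group, Chordin explants had at most 5.46 CPM in any library, a level reached in group 3. Pinhead explants had 97.7 and 102 CPM in group 1, 78.4 and 75.8 CPM in group 3, 45.5 and 54.1 CPM in group 7, 49 and 66.6 CPM in group 9 and 33.5 and 41.4 CPM in group 10. Only paralog groups 12 and 13, the most posterior, stayed below 3.1 CPM.

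The anterior and the posterior hox genes were placed differently beside control. Group 1 stood at 99 and 89 CPM in control, beside the 97.7 and 102 CPM of Pinhead, and at 2.49 and 3.22 CPM with Chordin. By contrast, group 7 had 0.543 and 0.459 CPM in control, close to the 0.0554 and 0 CPM of the Chordin libraries. For hoxa7.L the Pinhead libraries had 27.7 and 31.5 CPM, control 0.543 and 0.459 CPM, and the Chordin libraries 0 counts, a bound of at least 356-fold over Chordin. The Pinhead mean exceeded the control mean in 53 of the 54 genes, though only 18 had a control mean of 0.5 CPM or more. Differences from control were not tested here.

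**Figure D2:**
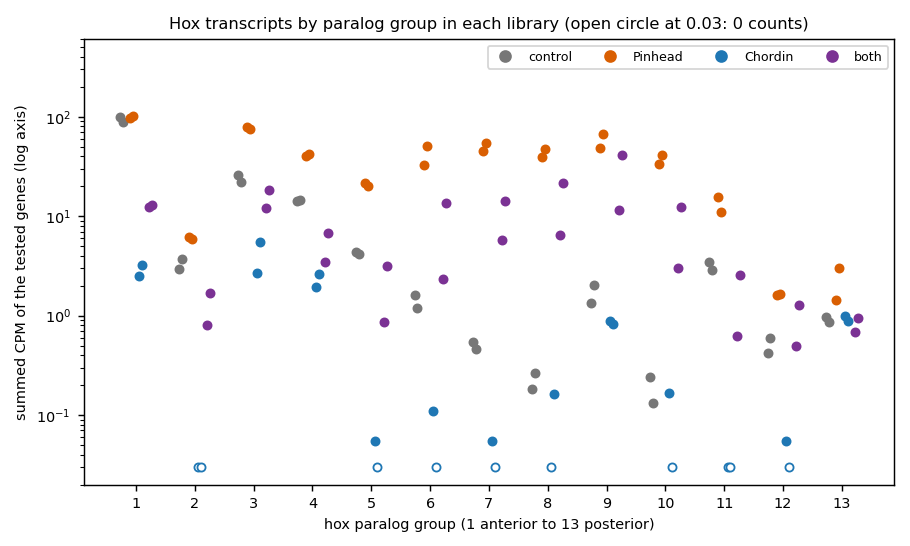
Summed CPM (log axis) of the tested hox genes of each paralog group in each of the 8 libraries, by explant group. Pinhead libraries stand above Chordin libraries in every paralog group, while control lies near Pinhead at group 1 and near Chordin at groups 7, 8 and 10.

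Wnt ligands and Wnt-responsive genes were mostly higher with Pinhead. The ventrolateral mesodermal ligand wnt8a.L was at 15.3 and 19.7 CPM in the Pinhead libraries and at 0.0554 and 0 CPM in the Chordin libraries, a 627-fold ratio whose 95% counting interval ran from 112 to 24800. The feedback inhibitor axin2.S stood at 7.65 and 6.19 CPM against 0.332 and 0.928 CPM (log2 fold change 3.44 ± 0.38), and the zinc finger target sp5l.L at 35.9 and 39.5 CPM against 5.26 and 6.77 CPM (2.65 ± 0.18; edgeR adjusted p = 5.37e-05 and 2.68e-06). No Chordin library reached a Pinhead library in any of these. The other copy, axin2.L, differed less, 2.73-fold, at 10.5 and 12.8 CPM against 3.43 and 5.08 CPM, with 0.724 and 0.59 CPM in control. The marker sp5.S was low in both groups and was not called (edgeR adjusted p = 0.191). Of 66 Wnt targets and feedback genes tested, 46 (69.7%) were higher with Pinhead and 15 (22.7%) higher with Chordin, with a median of 2.62, and many of them, such as t.L and cdx4.L, are also mesodermal or posterior genes. Those higher with Chordin included the proto-oncogene myc.S, at 548 and 536 CPM against 188 and 215 CPM. Wnt ligand genes were higher with Pinhead in 13 of 25 cases. The 4 higher with Chordin were wnt11.L, wnt4.S, wnt5b.L and wnt8b.S, and the calls on this side numbered 1 without library 5 and 2 without library 6.

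Wnt receptors and secreted antagonists divided by family member. All 17 frizzled genes tested were called, 6 higher with Pinhead and 11 higher with Chordin. The receptor fzd10.S stood at 118 and 161 CPM in Pinhead explants and 0.498 and 1.53 CPM in Chordin explants, 136-fold higher. Against it, fzd8.S, a receptor gene of the anterior neural plate, stood at 34.2 and 54.9 CPM with Pinhead, compared with 422 and 393 CPM with Chordin, a 9.18-fold difference toward Chordin (edgeR adjusted p = 2.1e-07 for fzd10.S and 1.12e-06 for fzd8.S). The 6 toward Pinhead were the copies of fzd4, fzd6 and fzd10, and the 11 toward Chordin belonged to fzd1, fzd2, fzd3, fzd5, fzd8 and fzd9. Of 28 Wnt antagonists tested, 15 were higher with Chordin and 7 higher with Pinhead. The secreted frizzled-related protein sfrp2.L was at 0.897 and 0.826 CPM with Pinhead and at 111 and 107 CPM with Chordin, 125-fold higher with Chordin. Its other copy, sfrp2.S, was at 43.9 and 42.7 CPM against 344 and 349 CPM, 8-fold higher. The corepressor tle1.L was at 54.9 and 69 CPM against 164 and 160 CPM. The organizer antagonist dkk1.S was low in both, at 2.27 and 1.38 CPM against 6.64 and 4.86 CPM.

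The BMP ligands bmp4 and bmp7.1, several feedback regulators of the pathway and its ventral targets were higher with Pinhead, while the pathway's components as a list were divided. The ligand bmp4.L was at 134 and 150 CPM in the Pinhead libraries, 32.1 and 33 CPM in the Chordin libraries and 135 and 131 CPM in control. The ligand bmp7.1.S stood at 70.8 and 78.3 CPM against 0.609 and 0.492 CPM, 134-fold higher with Pinhead (edgeR adjusted p = 0.000116). The pseudoreceptor bambi.L, which is induced by BMP and dampens its signal, had 209 and 249 CPM in Pinhead explants and 15.2 and 11.7 CPM in Chordin explants. Sizzled, a secreted feedback inhibitor that blocks the proteases that cleave Chordin, had szl.L at 117 and 125 CPM against 0.554 and 0.655 CPM, a 198-fold difference. Control lay above Pinhead in both feedback genes, with bambi.L at 369 and 336 CPM and szl.L at 248 and 229 CPM. The ventral homeobox repressors had no counts with Chordin: ventx1.2.S was at 24.3 and 31.2 CPM with Pinhead, at least 331-fold higher, and ventx3.2.L at 19.8 and 24.9 CPM, at least 267-fold higher. Whereas ventx1.2.S had 10.3 and 8.2 CPM in control, ventx3.2.L had 0.0603 and 0.131 CPM there. Of 57 BMP ligands, receptors and modulators tested, 27 (47.4%) were higher with Pinhead and 15 (26.3%) higher with Chordin, with a median log2 fold change of 0.26. Among the 15 were both copies of the type I receptor bmpr1b and of the ligand gdf6, with means of 0.0688 CPM with Pinhead and 27.1 CPM with Chordin for bmpr1b.L and 0.103 and 22.8 CPM for gdf6.S (chosen after their values were seen).

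Of 68 BMP targets tested, 59 (86.8%) were higher with Pinhead and 8 (11.8%) higher with Chordin, with a median log2 fold change of 2.43. The list of ventral and posterior mesoderm, which shares genes with it, had 54 of 62 tested members higher with Pinhead and 4 higher with Chordin, namely aplnr.L, tbx1.S, id3.L and id3.S. The 8 BMP targets toward Chordin were both copies of id3, hes1, eya1 and dlx6 (dlx6 and hes1.S named after their values were seen). Summed over the 68 tested, BMP targets stood at 9210 and 9870 CPM with Pinhead, 4330 and 4170 CPM with Chordin and 11800 and 11500 CPM in control. The BMP-inducible inhibitor id3.L stood at 200 and 217 CPM with Pinhead, 565 and 575 CPM with Chordin and 266 and 263 CPM in control, a log2 fold change of -1.45 ± 0.09 (edgeR adjusted p = 1.4e-06). The Notch- and BMP-responsive repressor hes1.L was at 32.7 and 46 CPM against 334 and 317 CPM. In both genes each Chordin library lay above each Pinhead library, opposite to most of the list.

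**Figure D3:**
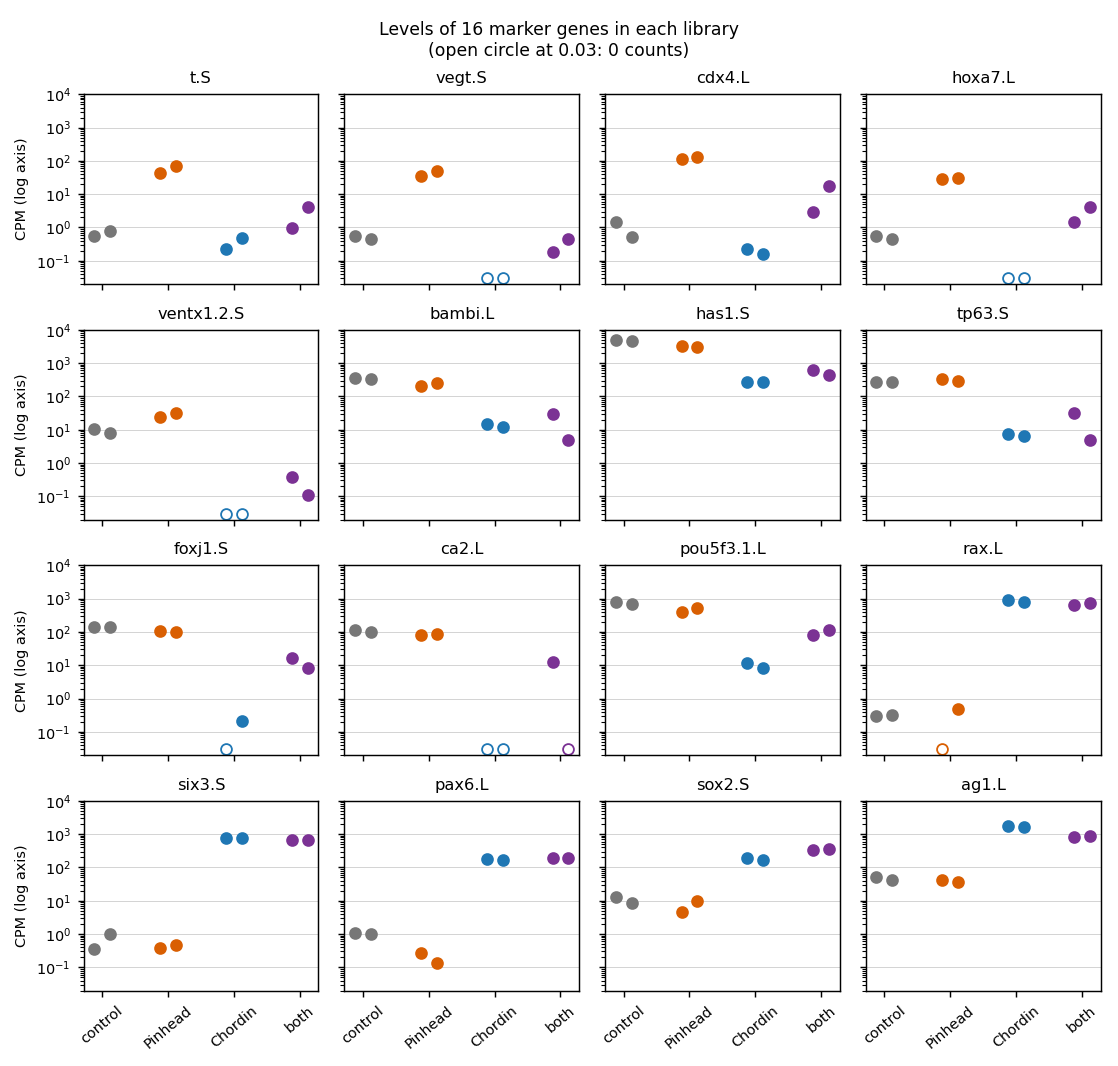
CPM (log axis) of marker genes in each library of the 4 explant groups. The upper panels hold mesodermal, posterior, BMP-responsive, epidermal, ciliated-cell and ionocyte genes and pou5f3.1.L, higher with Pinhead (orange) than with Chordin (blue). The panel of rax.L and the 4 lowest panels hold anterior neural, pan-neural and cement gland genes, for which the order is the reverse.

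Epidermal genes were higher with Pinhead, by moderate factors for the abundant keratins and by larger ones for the regulator tp63. The epidermal hyaluronan synthase has1.S stood at 3190 and 3080 CPM with Pinhead, compared with 277 and 262 CPM with Chordin, 11.6-fold higher, with 4830 and 4470 CPM in control. The basal keratinocyte regulator tp63.L was at 164 and 164 CPM against 1.44 and 1.31 CPM, 119-fold higher, and tp63.S at 328 and 287 CPM against 7.58 and 6.55 CPM (edgeR adjusted p = 0.000208 and 8.89e-05). The epidermal keratin krt5.7.S had 16900 and 18500 CPM against 5250 and 5340 CPM, a 3.34-fold difference, and krt5.7.L differed 1.89-fold. The epidermal lectin itln1.L had 1720 and 1520 CPM against 461 and 489 CPM. The grainyhead-like factor grhl1.L, an activator of surface epidermal genes, was at 643 and 636 CPM against 210 and 197 CPM, and the BMP-dependent factor gata2.L at 841 and 945 CPM against 142 and 116 CPM. The relative grhl3, a marker set for epidermis, differed less. Its copy grhl3.L was at 271 and 243 CPM against 148 and 164 CPM, 1.64-fold higher with Pinhead. Its copy grhl3.S was at 481 and 439 CPM against 292 and 324 CPM, 1.49-fold higher.

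Of 93 epidermal genes tested, 66 (71%) were higher with Pinhead and 10 (10.8%) higher with Chordin, with a median log2 fold change of 0.94. Among 21 keratins 14 were higher with Pinhead and 4 higher with Chordin, the latter being krt18.L, krt18.S, krt19.S and krt8.S, keratins of simple epithelia. Among them was krt18.S, at 64.7 and 75.4 CPM in Pinhead explants and 766 and 730 CPM in Chordin explants, a log2 fold change of -3.42 ± 0.12 (edgeR adjusted p = 5.23e-08) in a gene with 44.3 and 37.7 CPM in control. The tight junction gene cldn1.L had 69.5 and 59.5 CPM with Pinhead and 0 counts with Chordin, at least 790-fold higher. Another claudin gene, cldn3.L, had 0 counts with Pinhead and 16.4 and 18.8 CPM with Chordin, at least 197-fold higher with Chordin. In claudins as a family, 8 of 21 were higher with Pinhead and 6 higher with Chordin, or 3 without library 4.

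Transcripts of the specialised cells of the embryonic skin were nearly all higher with Pinhead. Multiciliated cells carry beating cilia that move fluid over the skin, and ionocytes pump protons and ions. Of 68 genes of multiciliated cells 57 (83.8%) were higher with Pinhead, with a median log2 fold change of 4.40, as were 33 of 35 axonemal dynein and motile cilium genes and 29 of 32 intraflagellar transport genes. The forkhead factor foxj1.S, which switches on the motile cilium programme, stood at 109 and 103 CPM with Pinhead, 0 and 0.218 CPM with Chordin and 138 and 143 CPM in control. The axonemal dynein dnah9.S had 214 and 185 CPM against 0.498 and 0.819 CPM, and the cyclin-like ccno.S of centriole amplification had 142 and 171 CPM against 0.775 and 1.2 CPM, 300-fold and 157-fold higher (edgeR adjusted p = 1.99e-05 and 3.26e-05). Their Pinhead levels were within the same order of magnitude as control, and their Chordin levels were not. The 5 multiciliated-cell genes higher with Chordin were dnah11.L, e2f4.L, e2f4.S, rfx3.L and rfx4.S, and both transport genes on that side, bbs10.L and ttc21b.L, were likewise exceptions.

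For ionocytes and small secretory cells, 30 of 36 genes tested were higher with Pinhead and 2, ca14.L and ddc.L, higher with Chordin (1 without any of libraries 3 to 6). Carbonic anhydrase ca2.L, an ionocyte enzyme, stood at 82 and 84 CPM with Pinhead and had 0 counts with Chordin, at least 1000-fold higher. The ionocyte master regulator foxi1.L was at 117 and 93.5 CPM against 0.443 and 0.546 CPM, 209-fold higher (edgeR adjusted p = 1.72e-05). Its target, the proton pump subunit atp6v1b1.L, had 227 and 201 CPM against 3.54 and 1.64 CPM. The secretory-cell factor foxa1.L had 44.1 and 39.8 CPM against 0 and 0.273 CPM, a log2 fold change of 8.18 ± 0.42, or 12.46 without library 4. Its other copy, foxa1.S, was called only 2.24-fold higher, at 4.43 and 5.5 CPM against 2.05 and 2.35 CPM. That call was lost with the first run alone (edgeR adjusted p = 0.178). It was also lost without library 3, 4 or 6, with log2 fold changes of 1.06, 1.25 and 1.01. The marker tph1.L, at 1.32 and 0.894 CPM against 0.498 and 0.437 CPM, was not called (edgeR adjusted p = 0.093). Subunits of the vacuolar proton pump were higher with Pinhead in 24 of 28 cases, with a median of 1.55. The ubiquitous atp6v0c.L among them stood at 273 and 298 CPM against 41.6 and 43.3 CPM.

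Chordin explants expressed the genes of the eye field and forebrain, which were near 0 with Pinhead. The eye field homeobox gene rax.L had 0 and 0.482 CPM in the Pinhead libraries and 895 and 812 CPM in the Chordin libraries, a fitted 3920-fold difference. The forebrain and eye gene six3.S was at 0.369 and 0.482 CPM against 784 and 776 CPM, pax6.L at 0.264 and 0.138 CPM against 178 and 172 CPM and the retinal homeobox gene vsx1.L at 0 counts against 101 and 95.5 CPM, at least 1100-fold higher with Chordin. All of these genes were at 1.1 CPM or less in control. The homeobox gene otx2.L, which marks forebrain and midbrain, was at 3.16 and 5.44 CPM against 246 and 251 CPM (log2 fold change -5.88 ± 0.19; edgeR adjusted p = 3.96e-08). The zinc finger gene fezf2.L of the forebrain and the optic gene vax1.L had 0 counts with Pinhead and 46 and 47.5 CPM and 18.4 and 19.9 CPM with Chordin.

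Of 86 anterior neural and eye genes tested, 65 (75.6%) were higher with Chordin and 13 (15.1%) higher with Pinhead, with a median log2 fold change of -5.20. The 13 were copies of dlx2, dlx5, emx2, sall3, tbx2, tbx3 and znf703. In emx2.S, a homeobox gene of the dorsal forebrain that is also expressed in the urogenital system, 17.9 and 13.3 CPM with Pinhead stood against 0.72 and 0.819 CPM with Chordin and 0.603 and 0.787 CPM in control (chosen after its value was seen). The others of higher level, such as dlx5.L, have non-neural expression as well, with dlx5.L at 105 and 139 CPM against 76.9 and 52.4 CPM, a call lost without library 4 or 6 (edgeR adjusted p = 0.0983 and 0.0654).

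Cement gland genes were also on the Chordin side. The cement gland is the sticky organ by which a young tadpole attaches itself. Its secreted product gene ag1.L stood at 42.9 and 36.5 CPM with Pinhead, compared with 1780 and 1660 CPM with Chordin, 43.4-fold higher with Chordin, and its homeobox regulator pitx1.L at 0.211 and 0.55 CPM against 151 and 138 CPM (edgeR adjusted p = 1.25e-08 and 9.23e-08). The disulfide isomerase agr2.L was at 16.3 and 18.2 CPM against 369 and 380 CPM. Each differed by more than the spread between libraries, and control was near Pinhead, at 50.6 and 42.4 CPM of ag1.L. Of 27 genes tested 18 were higher with Chordin and 4, the copies of dlx3 with dnmbp.L and spdef.S, higher with Pinhead.

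Pan-neural genes were higher with Chordin in 49 of 81 cases (60.5%) and higher with Pinhead in 11, with a median of -2.72. The neural stem cell RNA-binding protein msi1.L stood at 7.23 and 7.29 CPM in Pinhead explants and 321 and 301 CPM in Chordin explants, the adhesion molecule ncam1.L at 4.64 and 4.06 CPM against 167 and 157 CPM and the neural plate factor zic2.L at 5.85 and 9.49 CPM against 359 and 326 CPM, 42.8-fold, 37-fold and 45.1-fold higher with Chordin. The SoxB1 factor sox2.S was at 4.48 and 10.1 CPM against 192 and 168 CPM, and its relative sox3.L at 31.6 and 69.1 CPM against 342 and 317 CPM. Library 6 was above library 5 in both Sox genes, yet far below both Chordin libraries. Among 25 sox genes 16 were higher with Chordin and 4, sox6.S, sox7.L, sox7.S and sox9.S, higher with Pinhead. Markers of neurons were divided: elavl3.L, an RNA-binding protein of postmitotic neurons, was at 3.64 and 3.3 CPM with Pinhead, compared with 2.77 and 3.22 CPM with Chordin and was not called, and neurod1.L had 0 counts in all 4 libraries. Tubulins of neurons were higher with Chordin, tubb3.L with 0 counts against 11.5 and 17.2 CPM, tubb3.S with 0.0527 and 0.275 CPM against 2.27 and 2.29 CPM, and tubb2b.L with 13.7 and 15 CPM against 103 and 105 CPM. Of 56 genes of neuron differentiation, 22 were higher with Chordin and 8 higher with Pinhead, the latter 5 without library 4 or 5.

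Genes of the midbrain, hindbrain and posterior neural tube were mixed, 30 of 73 higher with Chordin and 20 higher with Pinhead. The early hindbrain factor pou5f3.1.L, which is also a pluripotency gene of the blastula, stood at 388 and 536 CPM in Pinhead explants and 11.3 and 8.19 CPM in Chordin explants, 47.4-fold higher, with 803 and 706 CPM in control. The midbrain to hindbrain boundary gene pax2.S was at 0.686 and 1.03 CPM against 109 and 97.5 CPM, 122-fold higher with Chordin (edgeR adjusted p = 6.78e-08), although the gene also marks the optic stalk. Its other copy, pax2.L, was at 1.85 and 1.72 CPM against 23 and 26.5 CPM, 13.8-fold higher. The boundary gene en2.S and the hindbrain gene egr2.L were below 1.1 CPM in the 4 libraries. Genes for neural crest were divided too, with 22 of 52 higher with Pinhead and 15 higher with Chordin. Of the markers set for crest, snai2.L was at 3.69 and 3.85 CPM with Pinhead against 0.83 and 0.928 CPM with Chordin. Its other copy snai2.S was at 1.95 and 2.82 CPM against 0 counts, and both copies were called (edgeR adjusted p = 0.000709 and 0.000118). In control snai2.L stood at 7.79 and 5.58 CPM. By contrast, foxd3.L and foxd3.S were at or below 0.221 CPM in each of the 4 libraries. The marker twist1.S was not called, and sox10 was not tested for want of counts.

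Enzymes that make and remove retinoic acid, a posteriorizing signal, differed in opposite directions. The degrading enzyme cyp26a1.L was at 26.4 and 37 CPM with Pinhead, compared with 4.76 and 4.59 CPM with Chordin, 6.76-fold higher, while cyp26c1.S, a relative expressed in the anterior hindbrain, was at 14.2 and 12.9 CPM against 164 and 142 CPM, 11.2-fold higher with Chordin (edgeR adjusted p = 1.63e-05 and 7.65e-08). The synthesising enzyme aldh1a2.L, described above, was 38.2-fold higher with Chordin. The binding protein crabp2.L stood at 100 and 130 CPM in Pinhead explants and 443 and 449 CPM in Chordin explants, and at 1.33 and 1.31 CPM in control, so both proteins' explants lay above control. Of 44 genes of the pathway tested 18 were higher with Pinhead and 17 higher with Chordin.

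FGF and ERK pathway genes showed no common direction, with 16 of 56 higher with Pinhead and 21 higher with Chordin. The ligand fgf8.L was at 4.38 and 7.64 CPM with Pinhead, compared with 14.2 and 14.8 CPM with Chordin, and the feedback inhibitor spry2.L at 4.17 and 6.54 CPM against 18.3 and 17 CPM, 2.45-fold and 3.34-fold higher with Chordin (edgeR adjusted p = 0.00072 and 0.00022). The receptor fgfr1.L was at 36.2 and 39.4 CPM against 220 and 221 CPM. The ERK-responsive phosphatase dusp6.L was at 29.4 and 39.8 CPM against 35.9 and 36.9 CPM and was not called, and neither was etv1.S, at 158 and 161 CPM against 184 and 173 CPM. The other copy, etv1.L, was called 1.45-fold higher with Chordin, at 91.6 and 90.5 CPM against 128 and 136 CPM (edgeR adjusted p = 0.00145). In etv1.S control was lower than all 4 libraries, at 48.6 and 49.5 CPM.

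Floor plate and hedgehog genes were higher with Chordin in 22 of 51 cases and higher with Pinhead in 12, or 7 without library 4. The transcriptional mediator and target gli1.S stood at 0.264 and 0.275 CPM against 8.64 and 10.4 CPM and the receptor and target ptch1.S at 4.64 and 3.23 CPM against 11.8 and 12.9 CPM, 34.5-fold and 3.11-fold higher with Chordin (edgeR adjusted p = 6.72e-06 and 0.000229), in explants with no more than 0.0688 CPM of either shh copy. Notch pathway genes were mixed, 24 of 55 higher with Pinhead and 18 higher with Chordin, and the ligand dll1.S was at 35.3 and 45.3 CPM against 22.8 and 18.8 CPM, 1.93-fold higher with Pinhead. Placode genes were called equally often, 25 of 67 each way, with foxi4.1.S at 7.01 and 7.84 CPM against 0.0554 and 0.109 CPM toward Pinhead.

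Organizer and prechordal genes were higher with Chordin in 23 of 41 cases and higher with Pinhead in 4, namely frem1.L, hhex.L, ism1.L and not.L. The call of the notochord homeobox gene not.L, at 0.633 and 0.826 CPM against 0.166 and 0.382 CPM (edgeR adjusted p = 0.0299), was lost without library 3 or 6 (adjusted p = 0.198 and 0.108) and with DESeq2 (0.0833), and its other copy not.S was called 6.12-fold higher with Chordin (edgeR adjusted p = 0.00265). Many of the 23 are forebrain genes as well, otx2.L and hesx1.L among them. The organizer homeobox gene gsc.L had 0 counts with Pinhead and only 2.6 and 0.765 CPM with Chordin, and the secreted antagonist frzb.L 0 and 0.0688 CPM against 3.93 and 3.99 CPM. Each was thus low even where it was called. The defining blood markers gata1 and tal1 had too few counts to test. The endodermal sox17a.L was at 0.264 and 1.58 CPM in Pinhead explants and 0.498 and 2.24 CPM in Chordin explants, not called. Other members of those lists were called: of 42 genes of blood, endothelium and heart, 19 (45.2%) were higher with Pinhead and 10 higher with Chordin, with a median of 1.40, and the summed level was 1740 and 1950 CPM with Pinhead, 431 and 368 CPM with Chordin and 2360 and 2340 CPM in control. Most of the sum in Pinhead and control explants came from gata2, with gata2.S at 586 and 646 CPM against 77 and 55.9 CPM. Of 23 genes of nodal signalling and endoderm, 11 were higher with Pinhead, both copies of cdx2 among them, and 2 higher with Chordin, a2m.S and frzb2.L, with a median of 1.17. Most markers of posterior mesoderm and epidermis were thus on the Pinhead side and most of anterior neural tissue and cement gland on the Chordin side. The labels name only the expressed protein, so these tissues were read from the markers alone.

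**Figure D4:**
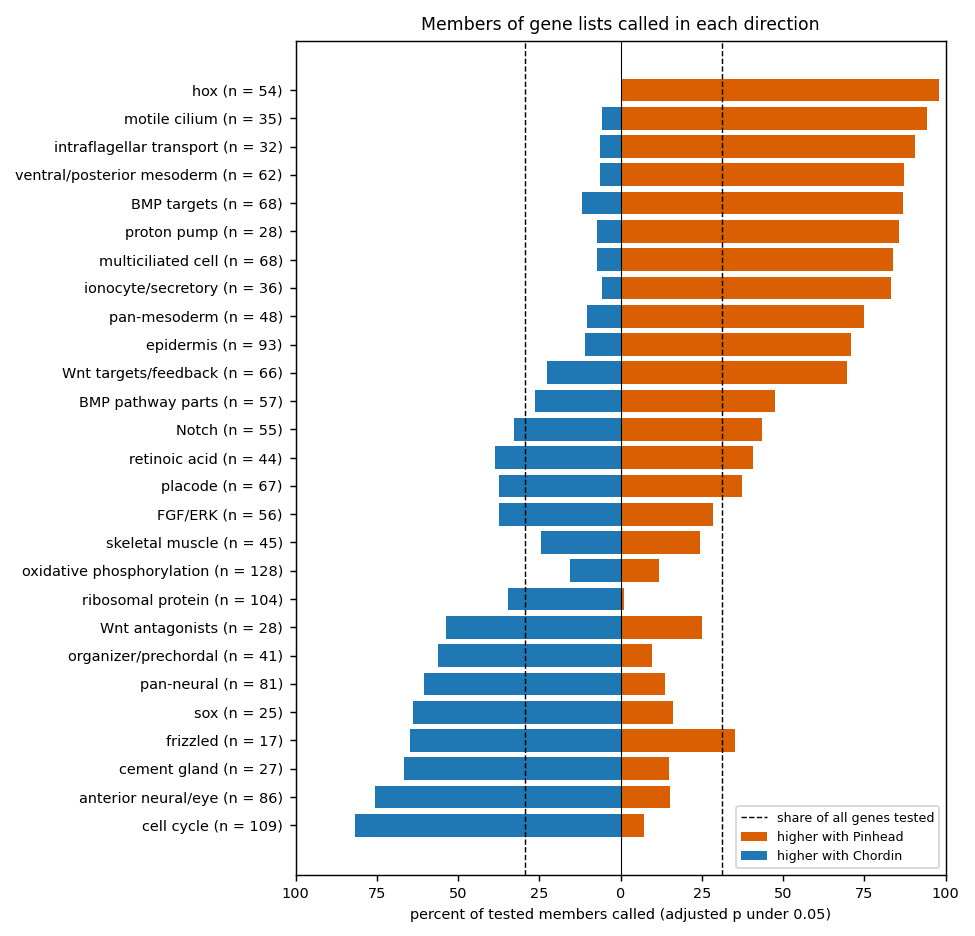
Percent of the tested members of each gene list called higher with Pinhead (orange, to the right) and higher with Chordin (blue, to the left), with n the members tested. Dashed lines mark the shares of all genes tested, 31.2% and 29.5%. Hox, cilium, BMP target and mesoderm lists lie far beyond the first line. Cell cycle, anterior neural and cement gland lists lie far beyond the second. Many hox genes and some mesodermal genes passed the count filter mainly through their Pinhead counts, which favoured that direction.

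Cell cycle genes were higher with Chordin, those of DNA replication most. Of 109 tested, 89 (81.7%) were higher with Chordin and 8 (7.34%) higher with Pinhead, or 5 without library 3 and 4 without library 4, and the median log2 fold change was -0.94. The genes were then grouped by role, a grouping made after their values were seen. Of 54 genes of replication and S phase 51 were higher with Chordin, with a median of -1.52, of 42 mitotic genes 32, with a median of -0.59, and of 13 G1 cyclins and inhibitors 6, with a median of -0.56. The replicative helicase subunit mcm2.L stood at 98 and 96 CPM with Pinhead, compared with 376 and 349 CPM with Chordin, and the polymerase clamp pcna.L at 67.8 and 89 CPM against 522 and 465 CPM, 3.74-fold and 6.3-fold higher with Chordin (edgeR adjusted p = 2.09e-07 and 4.45e-07). The mitotic kinase cdk1.L was at 53.6 and 67.3 CPM against 96.8 and 87.1 CPM, while cdk1.S was not called. Summed replication genes came to 2210 and 2330 CPM with Pinhead, 6510 and 6080 CPM with Chordin and 2690 and 2650 CPM in control.

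The cell cycle genes called higher with Pinhead numbered 8. In replication they were mcm6.L, with means of 24.8 CPM with Pinhead and 13.2 CPM with Chordin and no overlap, and mcm3.L, below 2 CPM in the 4 libraries. In mitosis they were ccnb2.L and both copies of ccna1, a cyclin that Xenopus embryos use early, with ccna1.S at 21.3 and 16.9 CPM against 0.72 and 0.437 CPM and at 19.8 and 23.4 CPM in control. The other 3 were the G1 cyclin ccnd2.L and the kinase inhibitors cdkn1b.S and cdkn2c.L, with log2 fold changes of 0.71, 0.47 and 0.96. Ribosomal protein genes were called higher with Chordin in 36 of 104 cases and higher with Pinhead in 1, rps10.L, with a median of only -0.19. That count fell to between 7 and 9 without library 3, 4 or 5, to 20 and 19 without control library 1 or 2, and to 18 with DESeq2, and it was 70 when counts were scaled by library total alone. Oxidative phosphorylation genes had a median of -0.01, and 93 of 128 were not called. Of the abundant heat-shock genes, hspa8.L was not called, at 3030 and 2810 CPM in Pinhead explants and 2950 and 2870 CPM in Chordin explants.

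**Figure D5:**
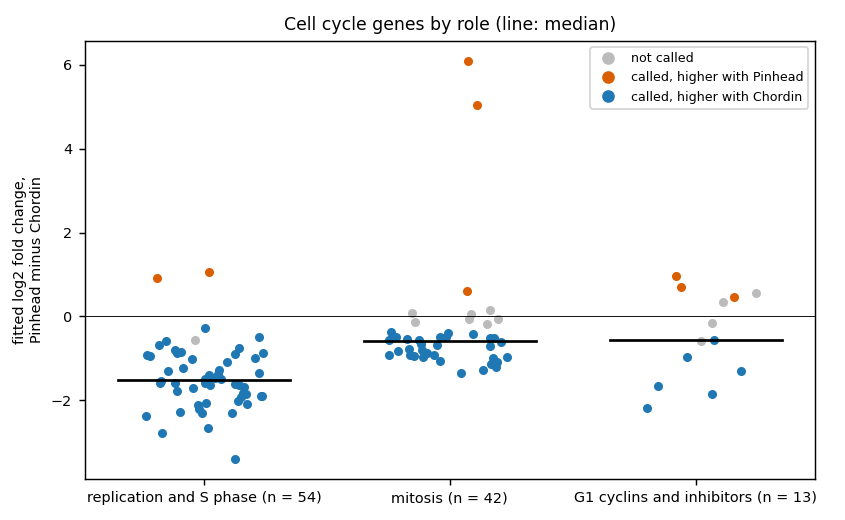
Fitted log2 fold change (Pinhead minus Chordin) of each tested cell cycle gene, grouped by role after values were seen, with a line at the median of each role. Of 54 replication and S phase genes 51 are blue, called higher with Chordin, and their median of -1.52 lies below those of mitotic (-0.59) and G1 genes (-0.56).

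Placing the other explants beside this pair showed which side was near control. On a scale of log2(mean CPM + 0.5), control lay nearer Pinhead than Chordin for 4170 of the 4694 genes at least 2-fold higher with Pinhead (88.8%) and for 3023 of the 3170 at least 2-fold higher with Chordin (95.4%). Lists differed in this: for the 60 multiciliated-cell genes with such a difference control was nearer Pinhead in 60, for BMP targets in 55 of 56 and for anterior neural genes in 68 of 71, whereas for hox genes it was nearer Chordin in 44 of 53 and for pan-mesodermal genes in 27 of 38. Explants with both proteins lay nearer Chordin for 4237 (90.3%) of the genes toward Pinhead and for 2943 (92.8%) of those toward Chordin, but nearer Pinhead in 22 of the 53 hox genes. In BMP targets they were nearer Pinhead in 0 of 56. These are placements of means, without a test. The expressed transcripts were also not at like levels. With both proteins pnhd.L stood at 429 and 486 CPM, below the 1250 and 739 CPM of the Pinhead libraries. In the same libraries chrd.S was at 793 and 934 CPM, beside 816 and 794 CPM in the Chordin libraries. Whether these levels bear on the placement was not tested. The libraries with both proteins were the least alike of any group (mean chi-square per gene 12.8). Their summed hox levels were 60.3 CPM in library 7 and 151 CPM in library 8, so the hox placement rests on a mean of unlike libraries.

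Where both copies of a duplicated gene were called, most pairs lay on the same side. Of 6595 pairs of long and short copies tested, 3040 had both copies called, 2600 of them in the same direction and 440 (14.5%) in opposite directions, with both differences at least 2-fold in 162. Examples chosen after their values were seen were the keratin krt19, with krt19.L at 182 and 228 CPM with Pinhead, compared with 17.4 and 14.1 CPM with Chordin but krt19.S at 22.7 and 28.2 CPM against 381 and 392 CPM, and the actin-regulating marcksl1, with marcksl1.L at 173 and 207 CPM against 39.5 and 36.6 CPM and marcksl1.S at 43.8 and 58.5 CPM against 374 and 348 CPM. Their log2 fold changes were 3.70 ± 0.52 and -3.93 ± 0.19, and 2.32 ± 0.13 and -2.82 ± 0.14 (edgeR adjusted p = 0.000237, 3.48e-07, 7.59e-07 and 3.73e-07). Both pairs were taken from the 162, so a copy on either side was set by that choice.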

How the data were processed

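Per the labels, RNA of 8 libraries was sequenced as paired ends, and according to the submitters' processing notes reads were aligned with HISAT2. The aligner's version, the counting tool, build, annotation and strand setting are not stated in these sources. The authors deposited raw counts per gene in 2 columns a library, treated here as runs and summed: per gene, the mean chi-square of a library's columns lay between 1.39 and 1.53, and that of replicate libraries between 3.19 and 12.8. The analysis covered 45035 genes, and 1 line that names no gene was left aside.

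In R 4.3.3, counts were scaled by TMM (factors 0.95 to 1.053), genes kept by filterByExpr (minimum 10 counts, 15 in total) and 1 quasi-likelihood model of 4 groups fitted to all 8 libraries with edgeR 4.0.16, leaving 4 residual degrees of freedom. The p-values, all two-sided, were adjusted with the Benjamini-Hochberg method over the 23130 genes tested, and genes under 0.05 were called. CPM used TMM-scaled totals, in which 3 counts equal 0.158 to 0.206 CPM. Folds against 0 counts are bounds that take 3 counts for the group; against 1 to 3 counts they are ratios with 95% counting intervals, which cover counting error only. Log2 fold changes and folds are otherwise fitted values.

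The comparison, the 44 gene lists and the tests were chosen with earlier results of these data known. Named genes were the chordin and pinhead copies, marker genes set for each list, up to 3 per list of highest mean CPM, and members behind a count of 5 or fewer. Added to them were up to 15 a direction with the largest called difference at a mean of at least 5 CPM and no overlap between the groups. For these last genes the absence of overlap was thus set by the choice. Others are marked as chosen later. Some genes that this rule names are not reported here. Of the 1585 list genes tested, 394 stand in more than 1 list. Alternatives were DESeq2 1.42.0, other scalings, no filter, the 4 libraries alone, each run alone and leaving out each library. The code was tested on simulated counts. Figures used Python 3.11.15 and matplotlib 3.10.9. No sequences or coordinates are shown.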

Additional observations from a re-analysis of the deposited data

How the results depend on the processing

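No paired analysis was possible because the groups compared share no replicate numbers. The counts of genes called, with and without the 2-fold limit, stayed within 1.5 times their main value under every alternative. Leaving out 1 library gave 5795 to 7677 genes higher with Pinhead and 5545 to 7430 higher with Chordin, and 4266 to 4924 and 2930 to 3348 at least 2-fold. The lowest counts were 5795 and 5567 of 24062 genes without library 3 and 5875 and 5545 of 24018 without library 4. Where a group kept 1 library, it was assumed to vary like the others. DESeq2 called 6221 and 5541 of 26949 genes, the 4 libraries alone 7295 and 6850. Scaling by library total shifted the median log2 fold change of all genes to -0.10 and gave 6524 and 7835 calls, so small differences, as of ribosomal proteins, depend on the scaling. Of 279 named genes none changed direction; the calls of not.L, nkx2-5.L, rpl3.L and stmn1.L were lost in the largest number of settings. At these depths 3 counts equal 0.158 to 0.206 CPM, so lower levels rest on fewer counts.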
